A study of Mus musculus with 2 samples.

Results

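The loci of Socs3, Spry4 and Lefty1, genes whose products feed back on LIF, FGF and Nodal signalling, were examined in a list of H3K56ac intervals from mouse embryonic stem cells. Members were the intervals that overlapped a window around each gene by 1 bp or more, in mm9 coordinates: chromosome 11 from 117720000 to 117960000 for Socs3 (240 kb), chromosome 18 from 38715000 to 38865000 for Spry4 (150 kb) and chromosome 1 from 182830000 to 182900000 for Lefty1 (70 kb). They numbered 269 of the 92549 intervals of the list, with 161 at Socs3, 86 at Spry4 and 22 at Lefty1. The windows were chosen by the positions of intervals in this same list, and those of Socs3 and Spry4 each enclose a known cluster. The number of members, their place among other windows, their widths and the gaps between them are therefore descriptions and were given no test. The list carries no gene names. The position of each gene was therefore taken only as approximate bounds, namely 117827000 to 117832000 for Socs3, 38745000 to 38761000 for Spry4 and 182865000 to 182869000 for Lefty1, and the names of the loci could not be checked against expression.

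The data came from chromatin immunoprecipitation and sequencing (ChIP-seq) of E14Tg2a, a feeder-independent embryonic stem cell line, with an antibody to acetylated lysine 56 of histone H3. The labels give 1 ChIP library and 1 library of input DNA from the same line, without treatment or replicate, and the input library was not analysed here. The cells were grown in 15% serum with leukaemia inhibitory factor (LIF) at 1000 units per ml and fixed with formaldehyde for 10 min. Each interval has a chromosome, a start and an end but no read count or height, so the depth is unknown, width is its only graded property, and no error between libraries can be given.

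LIF binds a receptor that contains gp130 and activates the kinase JAK and the transcription factor STAT3, which sustains self-renewal in mouse embryonic stem cells. Socs3 is a STAT3 target whose protein binds gp130 and JAK and dampens the signal. FGF signalling through ERK primes the same cells for differentiation, and Spry4, of the Sprouty family, restrains signalling from receptor tyrosine kinases to ERK. Nodal signals through SMAD2 and FOXH1, and Lefty1 is a secreted antagonist of Nodal. H3K56 lies in the globular core of the histone, where DNA enters and leaves the nucleosome.

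Of the 3 genes, 1 had an entry in the RefSeq promoter table. The 250 bases before the start of Socs3 (gene 12702) are shown because LIF signals to this gene through STAT3, whose palindromic motif was searched there. They lie on the minus strand of GRCm38.p6 at chr11:117969367-117969616, a build whose positions must not be set beside those of the interval list, which are in mm9. Capitals mark the match to the STAT motif.

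Socs3 promoter: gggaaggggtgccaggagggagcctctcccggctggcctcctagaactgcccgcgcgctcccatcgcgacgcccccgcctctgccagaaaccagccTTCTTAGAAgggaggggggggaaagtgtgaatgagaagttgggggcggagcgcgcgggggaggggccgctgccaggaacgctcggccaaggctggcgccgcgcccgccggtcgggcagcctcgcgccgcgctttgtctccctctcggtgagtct

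The stretch was rich in G and C (71.6%). The STAT motif, TTCNNNGAA, reads the same on both strands and matched once, from 154 to 146 bases before the start. This motif was present in 8.30% of the 32851 promoter sequences of the table, which run from 250 bases before to 50 after a start. The other motifs searched on both strands were AATNNACA for FOXH1 (in 12.2% of promoters), GTCTAGAC for SMAD proteins (0.213%), GGAAGT for ETS factors (23.8%) and the octamer ATGCAAAT (1.74%), and these letters had no match in the Socs3 sequence. A match describes letters in this window and does not show a binding site.

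H3K56ac intervals occupied a similar share of the Socs3 and Spry4 windows and a smaller share of the Lefty1 window. The 161 intervals at Socs3 held 48.5 kb, or 20.2% of the window, the 86 at Spry4 held 30 kb, or 20%, and the 22 at Lefty1 held 2.85 kb, or 4.07%. Their number per 10 kb was 6.71 at Socs3, 5.73 at Spry4 and 3.14 at Lefty1. In covered share, Lefty1 lay further below the other two loci than in number, since its intervals were also narrower. The windows differ in length, and their limits affect these shares. A stretch of 70 kb centred on each gene was 32.1% covered at Socs3, 23.2% at Spry4 and 4.07% at Lefty1. Such stretches were chosen after the data were examined.

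**Figure D1:**
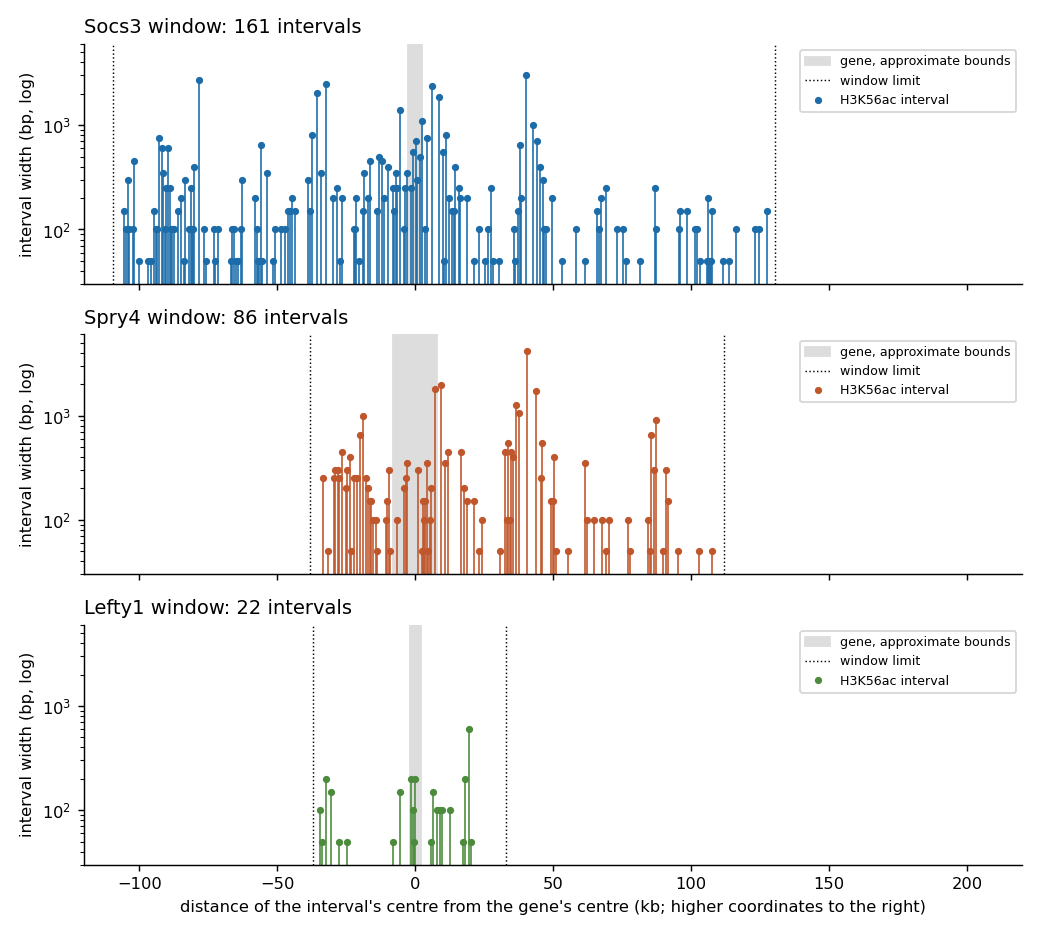
Width of every member interval (vertical axis, bp, log scale) against the distance of its centre from the centre of the gene (horizontal axis, kb), in 1 panel per window. Points and lines stand for single intervals, the grey band for the approximate gene and dotted lines for the window limits; wide intervals stand at several distances at Socs3 and Spry4, while 600 bp is the largest width at Lefty1.

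The windows ended in stretches without intervals, except that the lower end of the Lefty1 window cut through a group of intervals. At Socs3 the first member (117723951 to 117724100, 150 bp) lay 12.75 kb above the nearest interval outside (100 bp wide), and the last (117956901 to 117957050, 150 bp) lay 19.4 kb below the next (50 bp wide). At Spry4 the first member (38719401 to 38719650, 250 bp) was 15.9 kb from its outer neighbour (150 bp wide). Above its last member (38860501 to 38860550, 50 bp) no interval followed for 95.6 kb, until one of 100 bp. At Lefty1 the first member (182832351 to 182832450, 100 bp) was 7.35 kb from an interval of 200 bp outside, and the last (182887151 to 182887200, 50 bp) was 22.3 kb below the next, of 350 bp.

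Joined wherever the gap was under 0.0125 Mb, a distance in common use for enhancers, the members of the Socs3 window formed 1 cluster and so did those of the Spry4 window. The Socs3 cluster spanned 233 kb and the Spry4 cluster 141 kb, covered by intervals over 20.8% and 21.3% of their length. These spans depend on the joining distance, which the gap of 12.75 kb below the Socs3 cluster only just exceeded. Joined under 25 kb, both clusters would take in intervals outside their windows. The Lefty1 window instead held parts of 2 clusters. The gene lay in the one from 182858801 to 182887200, which had 16 intervals with 2.25 kb of interval sequence in 28.4 kb. The other ran from 182759851 to 182842300, reached into the window from below, and had 30 intervals in 82.5 kb. Between them no interval was called for 16.5 kb, the longest gap of the window, against longest gaps of 8.20 kb at Socs3 and 7.40 kb at Spry4.

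The flanks of the windows differed between the loci. In the 240 kb below the Socs3 window there were 56 intervals with 11650 bp, and in the 240 kb above it 14 with 1650 bp, against 161 with 48450 bp inside. For Spry4 the 150 kb below held 13 intervals and the 150 kb above held 3, against 86 inside. For Lefty1 the 70 kb below held 23 intervals with 5150 bp, which was more than the 22 with 2850 bp inside, and the 70 kb above held 8 with 3150 bp, of which 1 was 1000 bp wide or more. The flanks of Socs3 and Spry4 had 0 intervals of that width. Both flanks of the Lefty1 window thus covered more bases than the window itself, and the lower one also held more intervals. In the order of protein-coding genes of the RefSeq table of GRCm38.p6, used for names alone, Socs3 stands between Tha1 and Pgs1, and Spry4 between Ndfip1 and Arhgap26; which of these genes an interval lies on was not analysed here.

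Each window was set beside every other non-overlapping tile of its own length on its chromosome, from position 1 to the last interval. None of the 506 other 240 kb tiles of chromosome 11 (0%) held as many intervals as the Socs3 window, or as many interval bases; their median was 6 intervals and their highest 121. The window of Spry4 also exceeded all 604 other 150 kb tiles of chromosome 18 (0%), in intervals and in bases, with a median of 1 interval and a highest of 82. Over all autosomes, 0.0303% of 150 kb tiles held at least as many intervals as the Spry4 window. The share of 240 kb tiles that did so for Socs3 was 0%. At Lefty1, 41 of 2814 tiles of 70 kb on chromosome 1 (1.46%) held 22 or more intervals and 92 (3.27%) held at least as many interval bases. Most tiles of chromosome 1 were empty (63.4%), and the highest held 48. Since the windows were drawn around intervals already known and the tiles lie on a fixed grid, these places favour the windows. With windows of the same length begun at any interval's start, chosen after the data were examined, the densest other stretch of chromosome 11 held 124 intervals. On chromosome 18, however, 1 such stretch, from 75408451 to 75558450, held 89 and exceeded the 86 of Spry4, and on chromosome 1 there were 58 non-overlapping stretches with 22 or more.

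**Figure D2:**
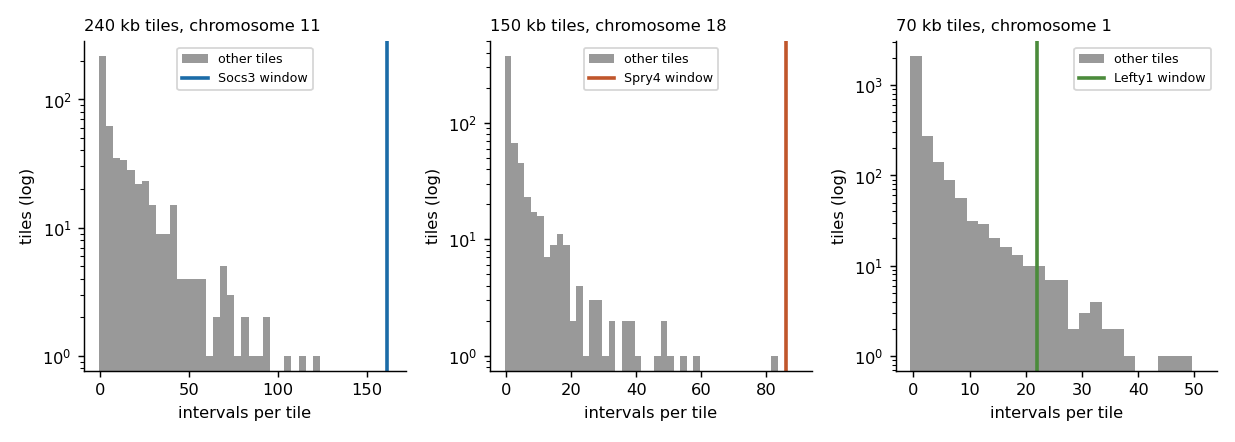
Number of tiles (vertical axis, log scale) by the number of H3K56ac intervals they hold (horizontal axis), for all non-overlapping tiles of the window's length on its chromosome outside the window. The coloured line marks the window itself, which lies above all other tiles for Socs3 (161 against at most 121) and Spry4 (86 against at most 82) and within their range for Lefty1 (22 against at most 48). The windows were drawn around intervals already known and the tiles lie on a fixed grid, which favours the windows. A freely placed stretch of chromosome 18 held 89 intervals.

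Wide intervals were found at Socs3 and Spry4 but not at Lefty1. Intervals of 1000 bp or more, which make up 1.55% of the list, numbered 9 of 161 at Socs3 (5.59%, Wilson 95% interval 2.97% to 10.3%) and 7 of 86 at Spry4 (8.14%, 4.00% to 15.9%). At Lefty1 there were 0 of 22 (Wilson upper limit 14.9%; by the limit of 3 counts, 0 of 22 intervals allows a share of up to 13.6%). These limits cover counting error only, treat neighbouring calls as independent, which they are not, and do not allow for the choice of the windows from this list, so they compare no loci. These intervals held 18000 bp at Socs3 (37.2% of its interval bases) and 12900 bp at Spry4 (43.0%), against 12.7% over the list. Intervals of 500 bp or more (6.98% of the list) were 23 at Socs3 (14.3%, 9.71% to 20.5%), 12 at Spry4 (13.95%, 8.17% to 22.8%) and 1 at Lefty1 (4.55%, 0.807% to 21.8%).

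Median interval width was 150 bp at Socs3 (quartiles 100 and 300 bp), 200 bp at Spry4 (100 and 350 bp) and 100 bp at Lefty1 (50 and 150 bp), where the whole list had 100 bp. The narrowest calls, of 50 bp, were 32 of the members at Socs3 (19.9%), 17 at Spry4 (19.8%) and 8 at Lefty1 (36.4%), against 30.7% of the list. Of the 101 other clusters with 50 or more intervals, 73 had a median width of at least the 150 bp of Socs3, while 11 reached the 200 bp of Spry4. As many intervals of at least 1000 bp as the 9 of Socs3 were found in 6 of the 101, and as many as the 7 of Spry4 in 14, with a median of 2. A lack of such intervals was the common case in small clusters. Of 920 other clusters with 12 to 20 intervals, 708 (76.96%) had none, and the cluster that holds Lefty1 had 16 intervals.

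**Figure D3:**
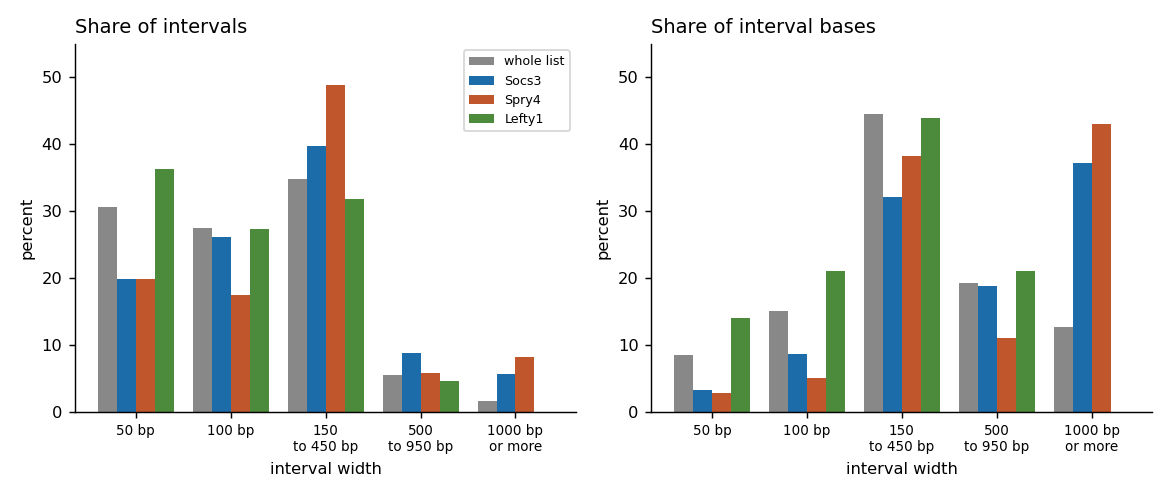
Percent of intervals (left) and percent of interval bases (right) in 5 classes of interval width, for the whole list and the 3 windows. Intervals of 1000 bp or more are 5.59% and 8.14% of intervals but 37.2% and 43.0% of bases at Socs3 and Spry4, and are missing at Lefty1.

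Intervals also lay closer together at Socs3 and Spry4. These windows were drawn around known clusters, while the gaps over the list include those between clusters, so the choice of windows favours short gaps. Gaps within other large clusters were not analysed here. The median gap between neighbours was 600 bp at Socs3 (160 gaps, quartiles 300 and 1313 bp), 550 bp at Spry4 (85 gaps, 300 and 1550 bp) and 1350 bp at Lefty1 (21 gaps, 600 and 2900 bp), against 1550 bp over the list. Gaps under 500 bp were 41.9% of those at Socs3, 42.4% at Spry4 and 19.05% at Lefty1, and 26.7% over the list. Whether close neighbours are separate sites or pieces of a broader one was not tested, since the rule by which the list joined windows is not known.

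At Socs3 the gene itself was among the most densely covered parts of the window. It carried 6 intervals, of 250, 550, 700, 300, 500 and 1100 bp from its lower to its higher end, which covered 55.0% of the 5 kb between the gene's bounds. The 1100 bp interval (117831551 to 117832650) crossed the higher bound, on the side where transcription of this minus-strand gene begins. The bounds are approximate, so whether this interval covers the start itself was not tested. The nearest intervals off the gene were 250 bp below it (350 bp wide) and 850 bp above it (100 bp wide). Around the gene, 7 neighbouring 5 kb bins in a row were each covered over 20% or more, from 19.5 kb below to 15.5 kb above its centre. When intervals less than 500 bp apart were joined, the longest block of the window ran across most of the gene and beyond its higher end, from 117828551 to 117841100, with 12 intervals covering 9650 of 12550 bp.

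The 3 longest intervals at Socs3 were away from the gene, on both sides. The longest (117868201 to 117871200, 3000 bp) lay 36.2 kb above it, the second (117749751 to 117752450, 2700 bp) 74.6 kb below and the third (117795851 to 117798350, 2500 bp) 28.7 kb below. Those of 1000 bp or more stood in 4 places. At and beside the gene there were 4, of 1400, 1100, 2400 and 1850 bp, from 2.25 kb below to 5.10 kb above it. A pair of 2050 and 2500 bp lay 32.1 and 28.7 kb below the gene, a pair of 3000 and 1000 bp lay 36.2 and 39.8 kb above, and the one of 2700 bp stood among shorter ones.

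The side of Socs3 towards lower coordinates carried more intervals than the other. Below the gene there were 90 in 107 kb (8.41 per 10 kb, 24.4% covered), and above it 65 in 128 kb (5.08 per 10 kb, 14.8% covered), with 4 of 1000 bp or more on each side. The 70 kb with the most intervals did not include the gene: it began 103 kb below it, with 62 intervals, 14.1 kb of interval sequence and 1 interval of 1000 bp or more. The 70 kb with the most interval bases did include it, from 51.4 kb below the gene to 13.6 kb above, with 58 intervals, 25.65 kb and 6 of 1000 bp or more. At Socs3 the parts richest in calls and in called bases thus differed. The most distant part above the gene held short intervals, and the longest gap lay there, from 117916951 to 117925150.

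**Figure D4:**
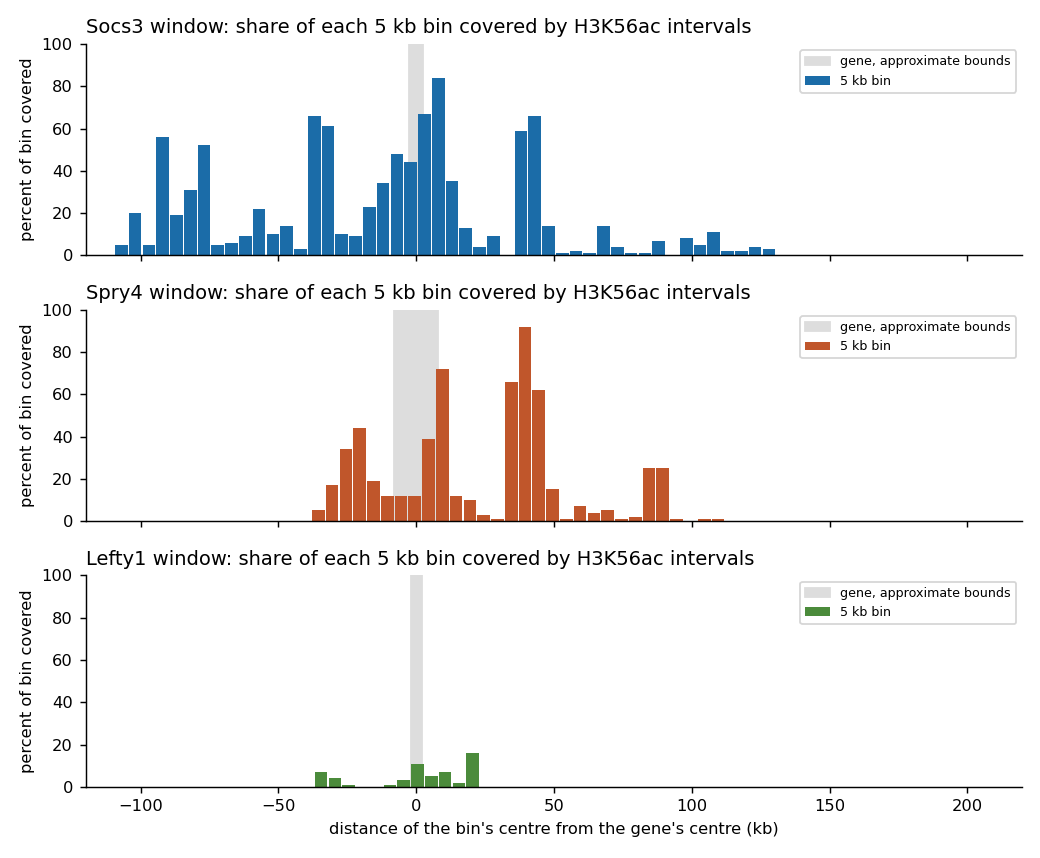
Percent of each 5 kb bin covered by H3K56ac intervals (vertical axis) by distance from the centre of the gene (horizontal axis, kb), in 1 panel per window, with the approximate gene as a grey band. Coverage is highest next to the gene at Socs3 (84.0%), 39.5 kb above the gene's centre at Spry4 (92.0%) and nowhere above 16.0% at Lefty1.

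At Spry4 the widest intervals on and next to the gene stood near its higher bound. Transcription of this gene is known to begin at that end, though its strand was not taken from these data. The gene carried 14 intervals covering 25.9% of its 16 kb, of which 13 were between 50 and 350 bp wide and the last was 1800 bp (38759201 to 38761000), ending at the higher bound. It was followed 250 bp further by one of 1950 bp (38761251 to 38763200). These were the third and the second longest of the window. Since the bounds are approximate, their distance from the start of the gene was not measured. Below the gene the nearest interval was 1100 bp away and 50 bp wide.

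The longest interval at Spry4, 4150 bp from 38791451 to 38795600, lay 30.5 kb above the gene and belonged to a run of 4 wide ones. These had 1250, 1050, 4150 and 1700 bp, at 27.8, 29.2, 30.5 and 34.9 kb from the gene. With intervals less than 500 bp apart joined, the run became a block of 12300 bp with 10 intervals that covered 10200 bp, the longest block of the window. The gene's higher end was the second longest block, with 5700 bp. The 5 bins of 5 kb with the highest coverage, of 30, held 56% of the interval bases of the window.

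Like Socs3, Spry4 had more intervals per 10 kb on its lower side. Below the gene there were 26 in 30 kb (8.67 per 10 kb, 21.8% covered). Above it there were 46 in 104 kb (4.42 per 10 kb, 18.6% covered). The sides reach unlike distances from the gene, so neither these rates nor these covered shares compare equal distances. Of the 7 intervals of 1000 bp or more, 5 lay above the gene, where the window is also longer. The only one below it was of 1000 bp, 10.45 kb away, in a group of shorter intervals. A last group lay far above the gene, where the 2 bins centred 84.5 and 89.5 kb above the gene's centre each had 25% of their length covered. Past it the window held a gap of 7.40 kb from 38848251 to 38855650.

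At Lefty1 the intervals on the gene were narrow. There were 4, of 200, 100, 50 and 200 bp, from 0.40 to 1.95 kb above the gene's approximate lower bound. Transcription of this gene is known to begin at that end, though its strand was not taken from these data. The 4 intervals covered 13.75% of the 4 kb of the gene, against 55.0% at Socs3 and 25.9% at Spry4. Their number per 10 kb, 10, lay between that at Socs3 (12) and at Spry4 (8.75). The median width on the gene was 525 bp at Socs3, 175 bp at Spry4 and 150 bp at Lefty1. The covered share at Spry4 includes its interval of 1800 bp, the widest on that gene. On the sides of the Lefty1 gene the covered share was lower than on it, with 2.29% below and 4.84% above. The nearest intervals off the gene were 3.45 kb below (150 bp wide) and 3.70 kb above (50 bp wide).

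The longest interval at Lefty1, from 182886101 to 182886700, had 600 bp and lay 17.1 kb above the gene. The next had 200 bp, among them one 30.3 kb below the gene (182834501 to 182834700) and one on it (182865401 to 182865600). Below the gene 8 intervals held 800 bp in 35 kb, and above it 10 held 1500 bp in 31 kb. Of the 14 bins of 5 kb, 4 held no interval and none reached a coverage of 20%, as 16 of 48 did at Socs3 and 9 of 30 at Spry4. In the 70 kb centred on each gene, a stretch placed by the gene's bounds alone, Socs3 had 55 intervals with 22.45 kb, Spry4 had 55 with 16.25 kb and Lefty1 had 22 with 2.85 kb, and those of 1000 bp or more numbered 6, 3 and 0. This choice was made after the data were examined.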

How the data were processed

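An H3K56ac ChIP library and 1 input library of E14Tg2a cells are labelled; the deposited interval list of the first was used. Per the submitters' processing notes, Bowtie and build mm9 were used; the interval caller, its threshold, all versions and the role of the input were not given in the sources used here. As deposited, the list has 3 columns (chromosome, start, end in bp) and no header. Tested on the file, 0 starts and 0 ends lay off a 50 bp grid when starts count from 1 with ends included, and no gap was under 150 bp. The depth is unknown.

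Members and lists were chosen with earlier results of these data known. Windows and gene bounds came with the definition of the loci; intervals named are the 3 longest per window, those on or next to the gene, those at the window limits and the longest gaps; the remaining intervals of 1000 bp or more, the blocks and the stretch on chromosome 18 were named after their values were seen. In place of randomly drawn windows, all non-overlapping tiles of the same length were used, without those that overlap the window. Chromosome lengths were not used. No genome or annotation of mm9 was used, so other genes of the LIF, FGF and Nodal pathways were not analysed here. Promoters were searched in the RefSeq table of GRCm38.p6. The code was tested on simulated data, where 200 of 200 tiles and 500 of 500 clusters were recovered. Alternatives were merging intervals, keeping wide ones, other limits and joining distances and a shorter promoter; freely placed windows and 2 choices of 70 kb stretches were added after the data were examined. Tools were scipy 1.17.1, pandas 2.3.3 and numpy 2.4.6 under Python 3.11.15, with plots from matplotlib 3.10.9.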

Additional observations from a re-analysis of the deposited data

How the results depend on the processing

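Alternatives gave 77 values, of which 50 were near the reported value (within 1.5 times, or within the 95% Wilson interval for shares of tiles) and 27 moved. Some outcomes were fixed in advance, so this tally does not measure robustness. No member crossed a window limit, so counting only those wholly inside changed nothing, and keeping wide intervals can only lower a count. The motif values describe the promoter table and not the loci. Merging under 500 bp left 94 intervals at Socs3 and 50 at Spry4, raised their median gaps to 1150 and 1050 bp, raised the covered share of Lefty1 to 6.14% and put 0.533% of tiles at or above it. Merging under 1000 bp left 56, 27 and 12 intervals at Socs3, Spry4 and Lefty1, covering 38.5%, 37.0% and 12.3%, with 0.746% of tiles at or above Lefty1; merging counts the closed gaps as covered. Intervals wider than the list's median of 100 bp numbered 87, 54 and 8. For these the median width was 250 bp at Socs3 and 200 bp at Lefty1, and at Lefty1 the covered share was 2.64%, the median gap 3850 bp and the share of tiles at or above 2.78%. That share was 3.27% by bases and 2.02% over all autosomes. Joining under 5 kb gave 6 clusters at Socs3 and 6 at Spry4, and joining under 25 kb gave 1 at Lefty1. Widening the Socs3 gene by 2 kb at each end gave 11 intervals. No paired analysis was possible because there is 1 library per group, and none could be left out. The list holds no read counts, so a stretch without an interval may lack H3K56ac or may have been too weak to be called.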
